A study of Mus musculus with 16 samples.

Results

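A group of 10 genes that read higher on arrays labelled Wnt4 knock-out than on wild-type arrays of the mouse embryonic gonad was followed across every group of the study. These are Cpa1, Cela3b, Aspn, Plbd1, Htr1b, Tacr3, Thbd, Ramp1, Fmo2 and Rassf2, 10 of the 12332 genes measured. The rule behind the list asks for a higher level in knock-out than in wild type at 1 or both stages, with no threshold and no sex named, and earlier results of these data named the genes for differences between knock-out and wild-type ovary arrays, so each is treated as chosen by that difference. The knock-out against wild-type values of the ovary are therefore given as a description with no test. The rule as worded covers the testis too, so testis tests of genotype are not independent of it and their shares over the list support nothing. Testis tests of stage use the same arrays and are not shown to be independent of the rule. On the array 25 of 45101 probe sets belong to these genes alone, 18 of them passed the filter on low values and 7 did not, and each gene kept at least 1. A probe set is a group of short probes for the same transcript, and a gene is represented here by its brightest one.

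The study took gonads from embryos of both sexes at embryonic day 12.5 (E12.5), when the testis and the ovary have just become distinct, and at E14.5. Wild-type embryos were set beside embryos labelled as Wnt4 knock-out, with 2 Affymetrix mouse expression arrays in each of 8 groups by genotype, sex and stage. The groups share no other allele or agent in the labels, and the sources used here name neither the mouse strain nor the deleted part of Wnt4, nor say whether an array held 1 embryo or a pool. P-values therefore measure only the spread between these arrays. Sample titles call the male gonads ovaries, while the source names and the sex-linked genes give testis, and they are called testis here.

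WNT4 is a secreted signalling protein made by somatic cells of the early gonad. In the fetal ovary it acts together with R-spondin and beta-catenin signalling to hold the supporting cells on the ovarian path. Fetal mouse ovaries without it are known for a testis-like coelomic blood vessel, for cells that make steroid hormones and for a loss of germ cells. The 10 genes do not belong to a single known pathway. They encode 4 proteins that act outside the cell or in its vesicles (Cpa1, Cela3b, Aspn, Plbd1), 4 proteins of the cell surface (Htr1b, Tacr3, Thbd, Ramp1) and 2 proteins inside the cell (Fmo2, Rassf2).

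The arrays had mean intensities of 272 to 288 and differ in ways that touch these genes. Xist and the Y-linked genes show RNA of the other sex in 5 groups. Both wild-type ovary arrays of E12.5 held some (18.9% and 7.82%), as did replicate 2 of the knock-out ovary at E12.5 (18.7%), the wild-type ovary at E14.5 (20.8%), the wild-type testis at E14.5 (22.9%) and the knock-out testis at E14.5 (16.6%). All other arrays held at most 1.45%. The pair of wild-type testis arrays of E12.5 hardly differ, with an SD of 0.142 for the log2 difference over genes (0.335 to 0.587 in other pairs), so calls with both averaged into 1 array stand beside the main ones. Wnt4 itself kept signal on the knock-out arrays, with 839 and 520 in the E12.5 ovary (wild type 844 and 1822) and 351 and 302 in the E14.5 ovary (wild type 1138 and 1150.5). Knock-out testes had Wnt4 values of 413 and 231 at E12.5 (wild type 502 and 473) and 277 and 371 at E14.5 (wild type 753 and 512). Residual signal cannot check the genotype labels without the position of the deletion. Fewer cells of a type and less RNA per cell cannot be told apart in whole gonads.

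Promoters of 9 of the 10 genes were in the RefSeq table of GRCm38.p6, and Thbd was not. The 250 bases before the start of Htr1b, Aspn and Tacr3 are shown because Htr1b had the largest difference between knock-out and wild-type testis, and because Aspn and Tacr3 changed most with stage in the testis. Capitals mark matches, on either strand, to TATAAA (the TATA box) or AACAAT (the core bound by SOX factors), and lower case marks all other bases.
Htr1b (chr9:81633833-81634082, minus strand): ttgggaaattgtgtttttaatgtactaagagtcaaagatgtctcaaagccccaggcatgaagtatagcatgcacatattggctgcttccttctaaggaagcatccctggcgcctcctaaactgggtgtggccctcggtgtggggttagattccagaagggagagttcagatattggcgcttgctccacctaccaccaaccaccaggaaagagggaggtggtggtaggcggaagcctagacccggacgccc
Aspn (chr13:49544193-49544442, plus strand): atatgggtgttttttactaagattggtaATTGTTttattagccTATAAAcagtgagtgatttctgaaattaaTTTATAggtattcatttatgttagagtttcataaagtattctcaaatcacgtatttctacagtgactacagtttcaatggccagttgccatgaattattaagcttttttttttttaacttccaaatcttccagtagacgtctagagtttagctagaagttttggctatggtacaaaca
Tacr3 (chr3:134828757-134829006, plus strand): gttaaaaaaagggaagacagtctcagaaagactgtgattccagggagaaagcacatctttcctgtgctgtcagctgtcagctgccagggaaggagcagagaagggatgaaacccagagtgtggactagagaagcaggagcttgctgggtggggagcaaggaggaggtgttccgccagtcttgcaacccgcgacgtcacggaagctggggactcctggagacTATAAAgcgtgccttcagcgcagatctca
The windows differ in base composition, with 30% G and C in Aspn, 52.4% in Htr1b and 54.4% in Tacr3. Tacr3 holds TATAAA 29 bases before its start. Aspn holds it at 207 and 178 bases and AACAAT at 222 bases before its start. Over the 9 genes, TATAAA was found in 2 and AACAAT in 1, against 12.4% and 9.42% of 32851 promoters of the same length. CTTTGAT, a core bound by the TCF/LEF factors of beta-catenin signalling, and CAAGGTCA, a core bound by the steroidogenic factor NR5A1, were found in 0 of the 9, against 3.21% and 1.33% of all promoters. These matches are a description of the letters and give no evidence of binding.

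**Figure D1:**
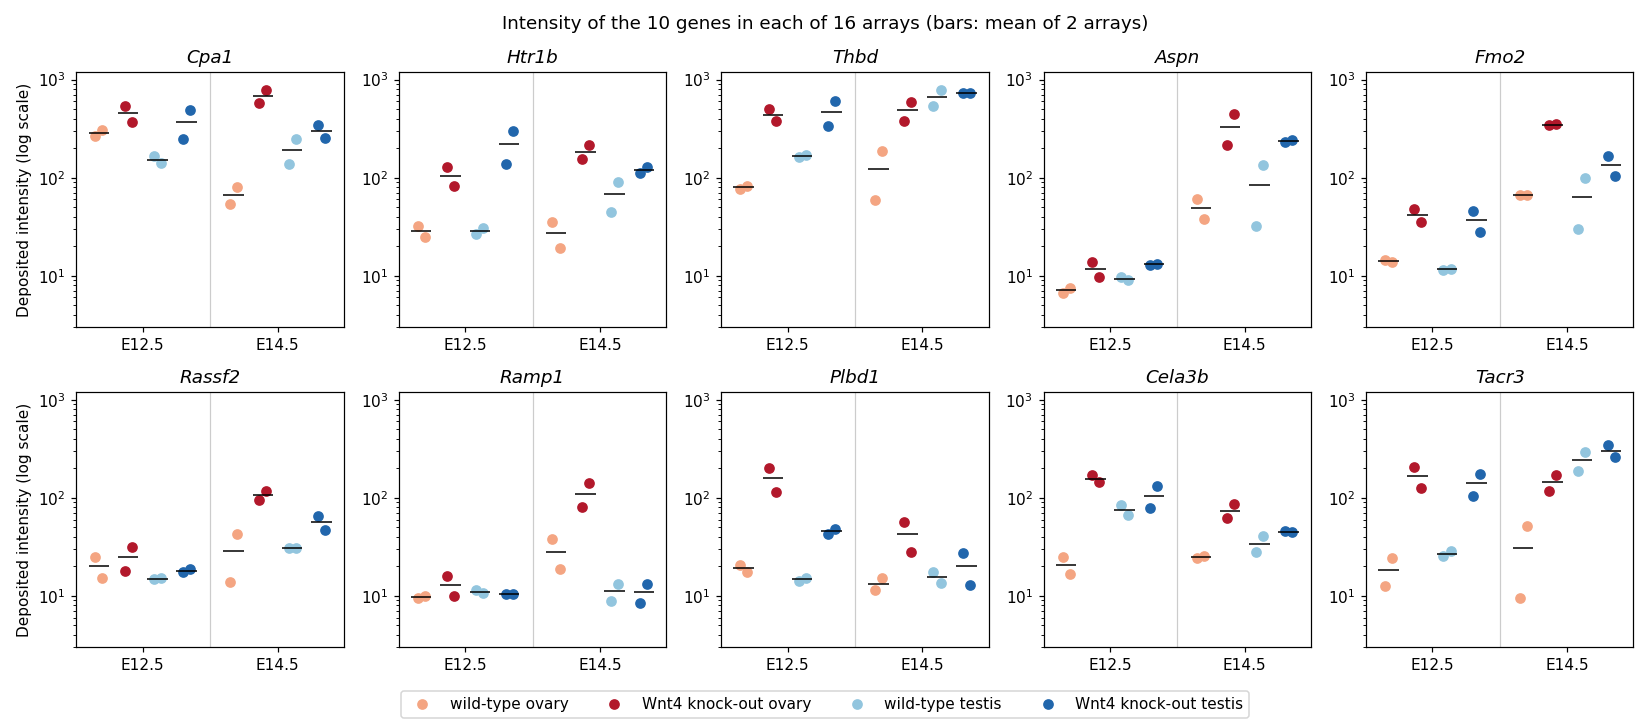
Deposited intensity (vertical axis, log scale) of the 10 genes in each of the 16 arrays, 1 panel per gene, with E12.5 on the left and E14.5 on the right of each panel; points are single arrays, colours give genotype and organ, and bars are means of 2 arrays. Knock-out ovary arrays lie above the wild-type ovary arrays of the same stage in every panel except Rassf2 and Ramp1 at E12.5, where they overlap, and Thbd and Tacr3 reach their highest levels in E14.5 testes.

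Cpa1 encodes the zymogen of a carboxypeptidase, best known as a digestive enzyme of the pancreas. In the ovary it read 269 and 306 in wild type and 539.9 and 368 in knock-out at E12.5, while E14.5 values were 53.4 and 80.6 versus 575 and 783. Testis arrays read 166 and 140.2 in wild type and 249 and 488 in knock-out at E12.5, while E14.5 values were 139 and 246 versus 342 and 255. Both knock-out arrays lay above both wild-type arrays in each of the 4 comparisons. The wild-type ovary was the group in which the level was lowest at E14.5, while at E12.5 it lay above both wild-type testis arrays. The log2 difference was 0.63 (1.54-fold) in the E12.5 ovary and 3.28 (9.69-fold) in the E14.5 ovary, with a standard error (SE) of 0.357. Differences and folds throughout are on the log2(intensity + 4) scale, which understates those of dim genes, and a gene passed the test where limma's Benjamini-Hochberg adjusted p over all genes was under 0.05. In the testis it was 1.17 at E12.5 and 0.66 at E14.5, and neither passed the test (limma adjusted p = 0.241 and 1.0). The E12.5 ovary difference was 0.35 when the first and 0.90 when the second knock-out array was left out. The testis difference was 0.69 without knock-out replicate 2 at E12.5, and 0.26 and 1.07 without wild-type replicates 1 and 2 at E14.5.

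Cela3b encodes a pancreatic elastase, also made as a zymogen. Its brightest probe set read 24.7 and 16.6 in wild-type and 169 and 143 in knock-out ovaries at E12.5, while E14.5 values were 24.4 and 25.6 versus 61.8 and 85.8. In testes it read 84.1 and 66.8 in wild type and 78.2 and 131 in knock-out at E12.5, while E14.5 values were 27.9 and 40.3 versus 45.5 and 44.3. The knock-out ovary at E12.5 was the highest group, and the arrays of wild-type and knock-out testis overlapped at that stage. This probe set carries the suffix x, which marks probes that can match other transcripts. The second x set read 7.78 and 11.7 against 30.3 and 17.1 in the E12.5 ovary, and the remaining sets stayed at 5.12 to 10.9 and at 3.23 to 9.71 over all 16 arrays. The log2 difference of 2.72 in the E12.5 ovary became 1.34 with the mean of the probe sets that passed the filter, and 1.41 became 0.70 at E14.5. The level of Cela3b is therefore uncertain.

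Aspn encodes asporin, a small leucine-rich proteoglycan of the extracellular matrix. At E12.5 it was dim in every group, with 6.67 and 7.53 in wild-type and 13.8 and 9.72 in knock-out ovaries, and 9.61 and 9.01 in wild-type and 13 and 13.2 in knock-out testes. At E14.5 it read 59.9 and 38.2 in wild-type and 215 and 445 in knock-out ovaries, and 32.1 and 135 in wild-type and 230.1 and 241 in knock-out testes. Every E14.5 array lay above every E12.5 array, and the knock-out arrays lay above the wild-type arrays in both sexes. The second probe set gave the same order at E14.5, with 27.6 and 41.9 against 346 and 487 in the ovary and 29.4 and 90.7 against 181 and 193 in the testis. The log2 difference was 0.50 in the E12.5 and 2.59 in the E14.5 ovary (SE 0.488), and the E12.5 value was 0.31 without knock-out replicate 1.

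Plbd1 encodes a protein with a phospholipase B domain, found in granules and lysosomes. It read 20.9 and 17.6 in wild-type and 201 and 114 in knock-out ovaries at E12.5, while E14.5 values were 11.4 and 15.3 versus 56.5 and 28.1. Values in the testis were 14.3 and 15.3 in wild type and 43 and 48.5 in knock-out at E12.5, while E14.5 values were 17.5 and 13.5 versus 27.3 and 13. The wild-type arrays stayed between 11.4 and 20.9 in both sexes and stages. The knock-out arrays were above this range everywhere except in the E14.5 testis, where replicate 2 was within it. The log2 difference in the ovary was 2.75 (6.72-fold) at E12.5 and 1.36 (2.56-fold) at E14.5, with an SE of 0.354. The E14.5 value was 0.90 without knock-out replicate 1.

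Htr1b encodes a serotonin receptor that couples to inhibitory G proteins. It read 32.4 and 24.6 in wild-type and 128 and 81.4 in knock-out ovaries at E12.5, while E14.5 values were 35.5 and 19.2 versus 154 and 214. The testis had readings of 26.9 and 30.7 in wild type and 139 and 302 in knock-out at E12.5, while E14.5 values were 45.1 and 89.9 versus 113 and 128. All 8 knock-out arrays except ovary E12.5 replicate 2 lay above all 8 wild-type arrays, and within each sex and stage the genotypes did not overlap. The other probe set of the gene stayed at 4.21 to 7.76 in all arrays and did not pass the filter. The log2 difference in the ovary was 1.72 at E12.5 and 2.62 at E14.5 (SE 0.415).

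Tacr3 encodes the receptor for neurokinin B, a tachykinin peptide. It read 12.7 and 24.1 in wild-type and 206 and 126 in knock-out ovaries at E12.5, while E14.5 values were 9.47 and 52 versus 118 and 172. In the male gonad it read 25.3 and 28.7 in wild type and 105 and 175 in knock-out at E12.5, while E14.5 values were 189 and 293 versus 345 and 259. All knock-out arrays and both wild-type E14.5 testis arrays read above 100 and all other wild-type arrays read at most 52. The second probe set gave a like order, with 8.59 and 8.1 against 38.7 and 64.6 in the E12.5 ovary and 6.71 and 21 against 63.7 and 68.2 in the E14.5 ovary. The third stayed between 4.04 and 15.8. The log2 difference in the ovary was 2.93 at E12.5 and 2.42 at E14.5 (SE 0.54). Wild-type ovary E14.5 replicate 2, the array with 20.8% RNA of the other sex, was the higher one, and the E14.5 difference was 1.39 without replicate 1 and 3.44 without replicate 2.

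Thbd encodes thrombomodulin, a surface protein of endothelial and some other cells that turns thrombin toward the activation of protein C. It read 77 and 83.1 in wild-type and 496 and 377 in knock-out ovaries at E12.5, while E14.5 values were 59.1 and 186 versus 381 and 597. Testis values were 163 and 172 in wild type and 333 and 605 in knock-out at E12.5, while E14.5 values were 536 and 791 versus 736 and 737. As for Tacr3, the E14.5 testis was high in both genotypes, and the arrays of wild type and knock-out overlapped only there. The log2 difference in the ovary was 2.38 at E12.5 and 2.14 at E14.5 (SE 0.426). At E14.5 it was 1.34 without wild-type replicate 1 and 2.93 without wild-type replicate 2. As for Tacr3, that replicate 2, with 20.8% RNA of the other sex, was the higher wild-type array.

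Ramp1 encodes a small membrane protein that escorts calcitonin-like receptors to the surface and sets which ligand they bind. It read 9.47 and 10.04 in wild-type and 15.8 and 9.93 in knock-out ovaries at E12.5, while E14.5 values were 37.8 and 18.6 versus 79.8 and 139.9. Testes gave 11.4 and 10.6 in wild type and 10.5 and 10.4 in knock-out at E12.5, while E14.5 values were 8.83 and 13.3 versus 8.5 and 13.3. All 4 ovary arrays at E14.5 lay above all other arrays, and no testis array passed 13.3 in either genotype. The name of a gene gained in the knock-out gonad thus applies to Ramp1 in the E14.5 ovary, where the log2 difference was 1.84 (SE 0.318), and not in the testis. The other Ramp1 probe sets stayed at 2.48 to 5.3.

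Fmo2 encodes a flavin-containing monooxygenase of the endoplasmic reticulum. It read 14.4 and 14 in wild-type and 48.4 and 35.7 in knock-out ovaries at E12.5, while E14.5 values were 65.8 and 66.4 versus 341 and 349. Among testis arrays it read 11.4 and 11.8 in wild type and 45.4 and 28 in knock-out at E12.5, while E14.5 values were 30.2 and 98.2 versus 165 and 103. Genotypes did not overlap in any of the 4 comparisons. In the knock-out the E14.5 ovary lay above the E14.5 testis. The log2 difference in the ovary was 1.33 at E12.5 and 2.31 at E14.5 (SE 0.414). The E12.5 value became 0.55 with the mean of the 4 probe sets that passed the filter, of which the other 3 read 4.25 to 13.4 in the E12.5 ovary.

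Rassf2 encodes a protein with a Ras-association domain that binds the MST kinases. It read 25 and 15.1 in wild-type and 17.8 and 31.5 in knock-out ovaries at E12.5, while E14.5 values were 13.9 and 42.8 versus 94.1 and 117. The testis arrays gave 14.7 and 15.2 in wild type and 17.5 and 18.6 in knock-out at E12.5, while E14.5 values were 30.9 and 30.8 versus 65.1 and 47.1. The ovary arrays overlapped at E12.5 and the difference of 0.24 there changed sign when replicate 2 of either genotype was left out (-0.06 without wild-type and -0.11 without knock-out replicate 2). At E14.5 it was 1.92 (SE 0.385), with 1.22 without wild-type replicate 1 and 2.61 without wild-type replicate 2.

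**Figure D2:**
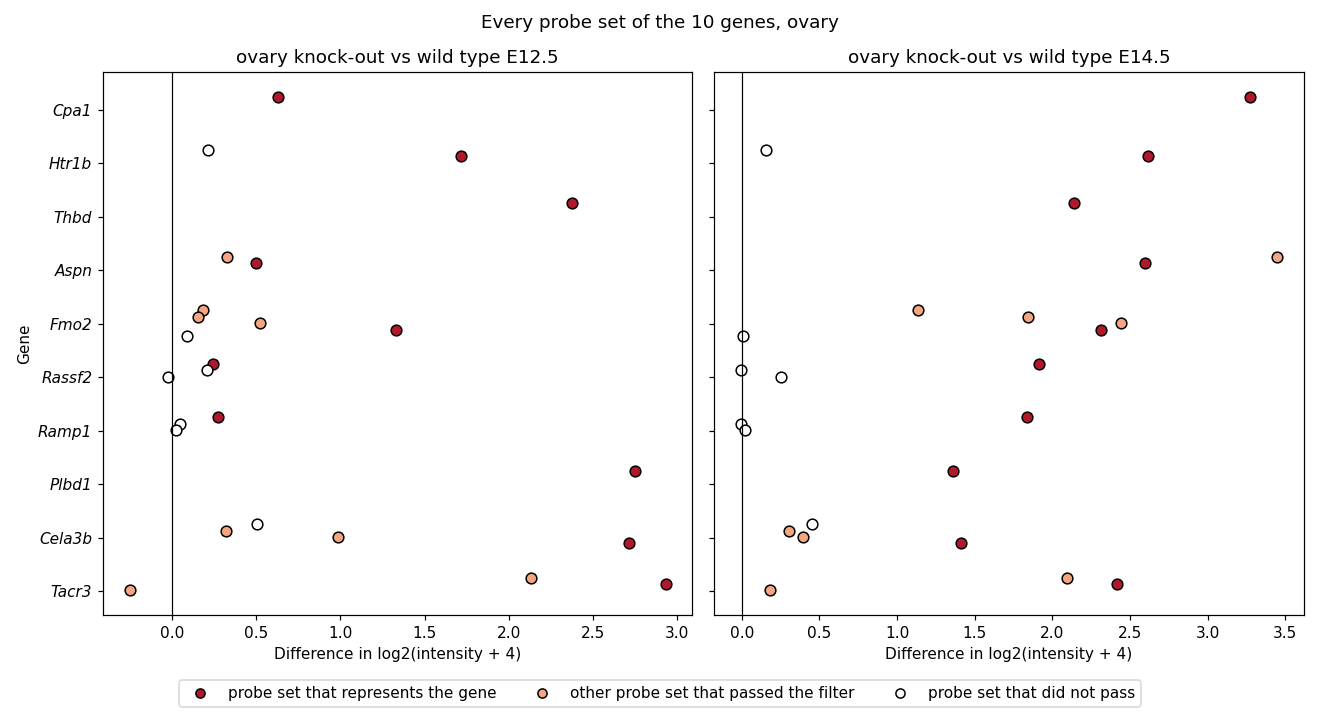
Log2 difference between knock-out and wild-type ovary (horizontal axis, log2(intensity + 4)) at E12.5 and E14.5 for each of the 25 probe sets of the 10 genes, 1 row per gene. The second Aspn set and the second Tacr3 set lie to the right beside the set that represents the gene at E14.5, whereas the other Cela3b sets lie below 1 at both stages. The third Tacr3 set lies at -0.25 at E12.5 and at 0.18 at E14.5.

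In the ovary all 10 genes were higher in knock-out at both stages by their means, which the rule had asked for at 1 of them at least. Arrays did not overlap for 8 of 10 genes at E12.5, where 15.3% of all genes were higher in knock-out without overlap, and for 10 of 10 at E14.5, against 12.4%. Since these contrasts chose the genes, nothing is read from the shares. The difference was larger at E14.5 for 6 genes (Cpa1, Htr1b, Aspn, Fmo2, Rassf2 and Ramp1) and at E12.5 for 4 (Tacr3, Thbd, Plbd1 and Cela3b). The range was 0.24 (Rassf2) to 2.93 (Tacr3) at E12.5 and 1.36 (Plbd1) to 3.28 (Cpa1) at E14.5.

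**Figure D3:**
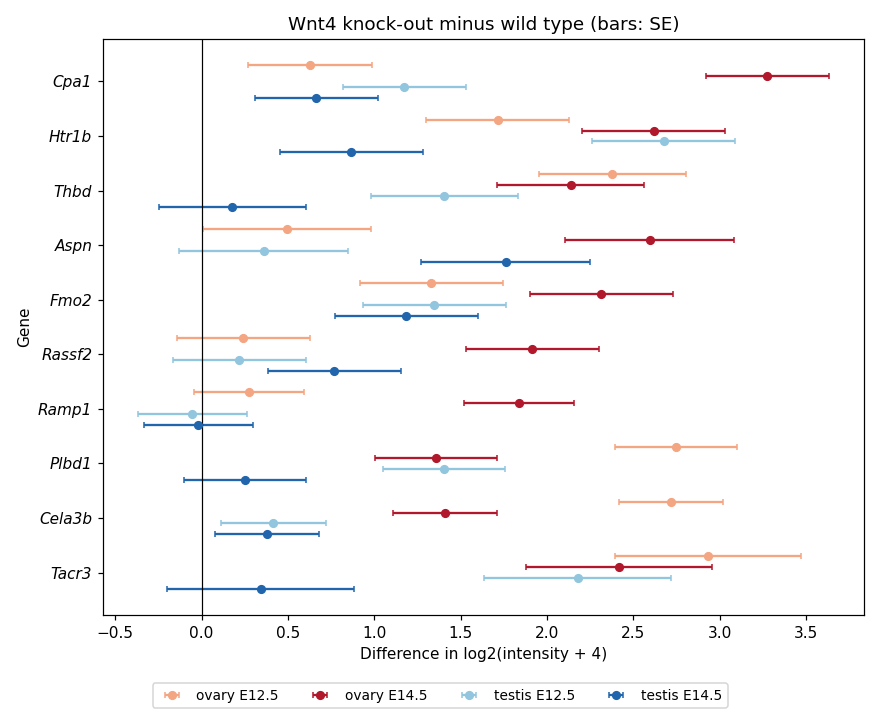
Log2 difference between Wnt4 knock-out and wild type (horizontal axis, log2(intensity + 4), bars 1 SE) for each gene in the ovary and testis at E12.5 and E14.5. The genes were named for ovary differences, which favours larger values in the ovary. Testis values are smaller than the ovary value of the same stage for 7 genes at E12.5 and for all 10 at E14.5. Nothing is read from these counts, and the testis values of Ramp1 lie near 0.

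In the testis 1 of the 10 genes passed the test between genotypes, which is not independent of the rule that chose the genes. The means compared there come from testis arrays alone, while the error comes from the fit of all 16 arrays. Htr1b rose at E12.5 from 28.8 ± 2.72 to 220.2 ± 115 (SD, n = 2 arrays each), a log2 change of 2.67 or 6.38-fold (SE 0.415, limma adjusted p = 0.0491). Over all genes 5 of 12332 passed, 0.0405%, of which 4 rose (0.0324%). The call of Htr1b was lost in 8 of 16 alternatives. With only the 4 arrays of the comparison in the fit the adjusted p was 0.0701, and 0 of the 10 genes and 1 of all genes passed. With the almost identical wild-type arrays averaged the adjusted p was 0.721. Leaving out wild-type replicate 1 gave 0.580, leaving out wild-type replicate 2 gave 0.641 and leaving out knock-out replicate 2 gave 0.290. In each of these last 4 cases 0 of all genes passed, while without knock-out replicate 1 the number was 29, Htr1b among them.

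The other genes are given by their values at E12.5 in the testis. Tacr3 read 27 ± 2.42 in wild type and 140.2 ± 49.8 in knock-out (log2 difference 2.18, SE 0.54, limma adjusted p = 0.144). Thbd differed by 1.40 (adjusted p = 0.240), Plbd1 by 1.40 (adjusted p = 0.149), Fmo2 by 1.35 (adjusted p = 0.246) and Cpa1 by 1.17 (adjusted p = 0.241) in the same fit. Other sets that passed the filter came to 2.00 and 0.13 for Tacr3 and to 0.43, 0.08 and 1.23 for Fmo2. Cela3b, Aspn and Rassf2 differed by 0.42, 0.36 and 0.22, and Ramp1 by -0.05. Of the 10 genes 9 read higher in knock-out, as did 63.8% of all genes, and 6 differed by over 1 on the log2 scale, as did 1.45% of all genes. Knock-out arrays lay above wild type without overlap for 8 genes, against 41.1% of all genes in a comparison with almost identical wild-type arrays. The median difference was 1.26 against 0.10 over all genes. Since the rule asked for a higher level in knock-out, nothing is read from these shares, nor from those of E14.5.

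At E14.5 none of the 10 genes passed in the testis by limma and 2 had an unadjusted p under 0.05, where 1 of 12332 genes passed (0.00811%, a gene that fell). The number of all genes was 1 and 4 without wild-type replicates 1 and 2, and 10 and 3 without those of the knock-out. Aspn had the largest difference, from 83.3 ± 72.4 to 236 ± 7.96 (log2 1.76, SE 0.488, unadjusted p = 0.00307, limma adjusted p = 1.0). Without wild-type testis replicate 2, the array with 22.9% RNA of the other sex, it was 2.73 with an adjusted p of 0.0457, and without replicate 1 it was 0.79 with an adjusted p of 1.0. Fmo2 differed by 1.18 (unadjusted p = 0.0131 in limma, adjusted p = 1.0), with 0.40 and 1.97 without wild-type replicates 1 and 2. The other Fmo2 sets that passed the filter came to 0.19, 0.51 and 1.07. Htr1b differed by 0.87, Rassf2 by 0.77 and Cpa1 by 0.66, and without wild-type replicate 1 Htr1b came to 0.40. Cela3b, Tacr3, Plbd1 and Thbd lay between 0.18 and 0.38, and Ramp1 at -0.02. Knock-out arrays lay above wild type without overlap for 6 genes, against 16.1% of all genes, and 2 differed by over 1, against 0.17%. The median was 0.52 against 0.03 over all genes.

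Aspn, Cpa1, Fmo2 and Htr1b were higher in knock-out without overlap in all 4 comparisons, as were 64 of all genes (0.519%). In the testis comparisons alone these 4 and Rassf2 were, 5 of 10, and 7.04% of all genes. Ovary contrasts chose the genes and the rule covers the testis, so neither share is read as a result. Whether the testis difference itself changed with stage was tested as an interaction in the same fit, which was added after the data had been seen. None of the 10 genes passed by limma and 3 had an unadjusted p under 0.05, against 1 of 12332 genes that passed (0.00811%) and 4.56% with an unadjusted p under 0.05. Since the rule covers the testis arrays, nothing is read from the share over the list. Htr1b came to -1.81 (SE 0.586, unadjusted p = 0.00852, limma adjusted p = 0.983). Tacr3 and Plbd1, also among the 3, came to -1.84 and -1.15. Aspn, which was not among them, came to 1.40.

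Several of the 10 genes changed with stage in the testis. Between E12.5 and E14.5 the wild-type testis rose in Tacr3, Aspn, Thbd and Fmo2 and fell in Cela3b, 5 of 10 genes, where 10.6% of all genes passed (6.73% rose and 3.86% fell). The rule covers these arrays, so nothing is read from the share over the list. Tacr3 rose from 27 ± 2.42 to 241 ± 73.4 (7.73-fold, log2 change 2.95, SE 0.54, limma adjusted p = 0.00431, n = 2). Aspn rose from 9.31 ± 0.419 to 83.3 ± 72.4 (5.32-fold, log2 change 2.41, adjusted p = 0.00773). Thbd rose from 167 ± 6.31 to 663 ± 180 (3.83-fold, adjusted p = 0.0122), and Fmo2 from 11.6 ± 0.307 to 64.2 ± 48.1 (3.79-fold, adjusted p = 0.0110). In its brightest probe set, which can match other transcripts, Cela3b fell by 1.07 on the log2 scale (limma adjusted p = 0.0379). Its other sets differed by 0.04, 0.29 and -0.04, so the fall of Cela3b is uncertain. Htr1b and Rassf2 were higher by 1.05 and 0.88 and did not pass (adjusted p = 0.123 and 0.165). Cpa1, Plbd1 and Ramp1 lay between -0.01 and 0.27.

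These calls rest on few arrays. With the almost identical E12.5 arrays averaged Tacr3 alone of the 10 passed in the wild-type testis, and the adjusted p was 0.0693 for Aspn, 0.0933 for Thbd, 0.0910 for Fmo2 and 0.192 for Cela3b. Leaving out either of these E12.5 arrays also left Tacr3 alone, with adjusted p of 0.0618 and 0.0747 for Aspn, 0.0932 and 0.0896 for Thbd, 0.0888 and 0.0896 for Fmo2 and 0.254 and 0.136 for Cela3b (replicates 1 and 2). Without wild-type E14.5 replicate 2 none of the 5 passed, with Tacr3 at 2.64 (adjusted p = 0.0538), Aspn at 1.44 (adjusted p = 0.0705), Thbd at 1.66 (adjusted p = 0.115), Fmo2 at 1.13 (adjusted p = 0.113) and Cela3b at -1.31 (adjusted p = 0.0772). Without wild-type E14.5 replicate 1 the 4 genes that rose passed and Cela3b did not (adjusted p = 0.211). The 1306 genes called in all became 302 with the averaged arrays, 339 and 260 without E12.5 replicates 1 and 2, and 741 and 423 without E14.5 replicates 1 and 2.

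In the knock-out testis 2 of the 10 genes passed between the stages, where 4.04% of all genes did and 2.77% rose. Nothing is read from this share either. The 498 genes called in all became 176 and 495 without E12.5 replicates 1 and 2, and 221 and 247 without E14.5 replicates 1 and 2. Aspn rose from 13.1 ± 0.136 to 236 ± 7.96 (14-fold on the log2 scale used, log2 change 3.81, SE 0.488, limma adjusted p = 0.000604). It passed in all 17 alternatives, with adjusted p between 0.000444 and 0.0106. Fmo2 rose from 36.7 ± 12.3 to 134 ± 43.8 (3.39-fold, limma adjusted p = 0.0301), a call that was lost without any of its 4 arrays (adjusted p of 0.0763 and 0.133 without E12.5 replicates 1 and 2, and of 0.266 and 0.0577 without E14.5 replicates 1 and 2) and with the wild-type E12.5 arrays averaged (adjusted p = 0.0535). Rassf2 was higher by 1.43 (adjusted p = 0.0575) and Tacr3 by 1.12 (adjusted p = 0.338). The brightest Fmo2 set changed by 1.76, and its other sets that passed the filter by 0.28, 0.93 and 1.34. For Tacr3 the other sets came to 1.01 and 0.55. Cela3b and Plbd1 both came to -1.11 (limma adjusted p = 0.0590 and 0.115), and the other Cela3b probe sets came to -0.23, 0.03 and -0.57. Htr1b and Cpa1 read -0.75 and -0.24.

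**Figure D4:**
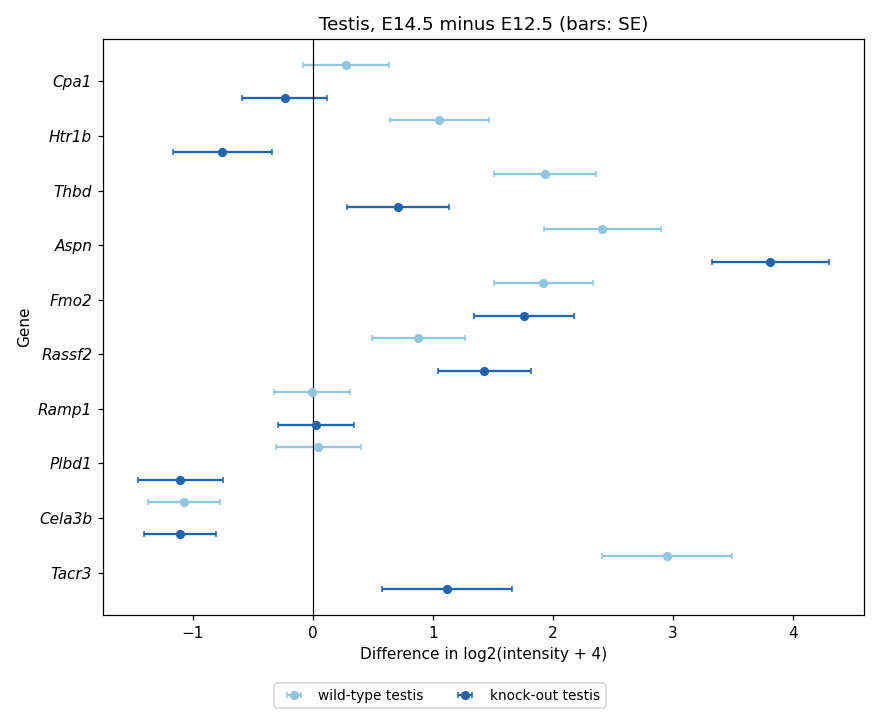
Log2 difference between E14.5 and E12.5 in the testis (horizontal axis, log2(intensity + 4), bars 1 SE) for each gene in wild type and in knock-out. Aspn and Fmo2 lie to the right in both genotypes, Ramp1 lies near 0 in both, and Htr1b lies at 1.05 in wild type and at -0.75 in knock-out.

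Levels in the knock-out ovary were set beside those of the wild-type testis, with no test because the ovary arrays chose the genes. At E12.5 the knock-out ovary lay above the wild-type testis without overlap for 9 of 10 genes, where 47% of all genes did, and Ramp1 overlapped. The difference was 3.05 for Plbd1, 2.42 for Tacr3 and 1.70 for Htr1b. At E14.5 it lay above for 8 genes, where 25% of all genes did, with 2.88 for Ramp1, 2.56 for Fmo2 and 2.15 for Aspn. Thbd overlapped, with 489 ± 152 in the knock-out ovary and 663 ± 180 in the wild-type testis, and Tacr3 was lower without overlap (26.6% of all genes were), with 145 ± 38.6 against 241 ± 73.4.

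Wild-type testis and ovary arrays did not overlap for a part of the list. The choice of genes favoured low wild-type ovary values, which enter this difference, so no test was made and nothing is read from the shares. At E12.5 the wild-type testis lay above the wild-type ovary for 5 genes, below it for 3 and overlapped for 2. Over all genes it lay above for 20.3% and below for 37.5%. The log2 difference of testis minus ovary was 1.70 for Cela3b, 1.03 for Thbd and -0.90 for Cpa1. The other Cela3b probe sets came to 0.14, -0.13 and 0.24. At E14.5 it was higher without overlap for 5 genes, where 21.5% of all genes were, with 3.12 for Tacr3, 2.58 for Thbd, 1.44 for Cpa1, 1.17 for Htr1b and 0.38 for Cela3b. Ramp1 was lower in the testis, with -1.04, where 24.4% of all genes were, and the other 4 genes overlapped. Replicate 2 of both E14.5 groups held RNA of the other sex, 22.9% in the testis and 20.8% in the ovary.

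The genes nearest in pattern over the 16 arrays were found by Pearson r of the log2 values, which all share the same 8 groups of 2 arrays. Thbd and Tacr3 were each other's nearest gene, with an r of 0.982. Colec11, a secreted collectin, was next to Thbd (0.948), and Nppc, the precursor of C-type natriuretic peptide, was next to Tacr3 (0.929). Colec11 read 33.5 ± 12.4 in wild-type and 125 ± 33.1 in knock-out ovaries at E12.5 and 184 ± 12.9 in knock-out testes at E14.5. Aspn went with Gm364 (0.984) and Arsi (0.952), and Fmo2 with Rtl3 (0.922) and Aspn (0.920). Gm364 read 30.5 ± 8.8 in wild-type and 149 ± 56.2 in knock-out ovaries at E14.5 and had means of 2.27 to 3.19 in the E12.5 groups.

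Ramp1 went with Cyp2r1 (0.974), a vitamin D 25-hydroxylase, and with Dmrtc2 (0.950), both of which read highest in the E14.5 knock-out ovary, at 39.9 ± 3.55 and 119 ± 73.8. Htr1b went with Cd55 (0.897), a regulator of complement, and with Lefty1 (0.874), an inhibitor of NODAL signalling. Lefty1 read 12.8 ± 0.0408 in wild-type and 46.7 ± 8.96 in knock-out ovaries at E12.5 and 30.6 ± 3.42 against 94 ± 23.3 in testes. Plbd1 went with Gria4 (0.926), a glutamate receptor subunit, and Madcam1 (0.895). Rassf2 went with Slc25a25 (0.909) and Rtl3 (0.901), Cpa1 with AW551984 (0.838) and Plxnc1 (0.829), and Cela3b with Nars2 (0.851) and Egln3 (0.838).

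Relatives of the 10 genes were read as 10 lists of families and pathways, each without its own member of interest. In each of the 4 knock-out comparisons 0 of their 49 tested genes passed the limma test. An unadjusted p under 0.05 was found for 9 in the ovary at either stage, for 11 in the E12.5 testis and for 2 in the E14.5 testis. These are 18.4% in the ovary at each stage, 22.4% and 4.08% of the 49, beside 8.01%, 5.74%, 11.1% and 1.48% of all genes in the same order. Between the stages 11 of the 49 passed in the wild-type and 7 in the knock-out testis, where 10.6% and 4.04% of all genes passed. Tac2, Procr, Calcrl and Fmo1 are named for their known tie to one of the 10 genes, chosen after their values had been seen. Cpa1 and Cela3b are both enzymes of the exocrine pancreas, and of 17 other digestive enzymes 6 were tested. Ctrl, a chymotrypsin-like protease, came closest between genotypes, with 11.2 in wild-type and 39.9 in knock-out ovaries at E12.5 (adjusted p = 0.0905) and 12.8 against 50.05 in testes (adjusted p = 0.0742). In the knock-out testis it fell with stage from 50.05 ± 12.3 to 9.89 ± 1.37 (limma adjusted p = 0.00332), where 1.27% of all genes fell. Clps, which encodes the colipase of the pancreas, rose with stage in the wild-type testis from 3.82 ± 0.0406 to 106 ± 13.1 (14.0-fold, limma adjusted p = 1.2e-06) and in the knock-out testis from 4.79 ± 0.233 to 130.1 ± 16.5 (15.2-fold, limma adjusted p = 8.2e-07). Ptf1a and Rbpjl, transcription factors that define acinar cells, stayed at 3.41 to 6.1 and at 3.05 to 4.8 in all arrays, and Cpb1 and Cel did not exceed 5.7. The summed level of 7 measured acinar markers was 73 to 133 in every array, with 1 or 2 of them above the array's median. Of the acinar list 2 genes were tested between genotypes, with no call. Their median log2 difference at E12.5 was 0.40 in the ovary and 0.58 in the testis, beside 0.03 and 0.10 over all genes. At E14.5 it was 0.03 in the ovary and 0.07 in the testis, beside -0.02 and 0.03.

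Other serotonin genes gave 4 tested of 17, and Htr1a, Htr1d and Htr1f stayed below 7. Ddc, which encodes the decarboxylase that makes serotonin and dopamine, fell with stage in the wild-type testis from 393 ± 12.1 to 88.3 ± 28.3 (limma adjusted p = 0.000922). All 8 tested markers of chromaffin cells and sympathetic neurons fell in the same comparison, where 3.86% of all genes fell. Their part in the change of Ddc was not tested. Of the tachykinin genes only Tac2, which encodes neurokinin B, was tested, at 11.98 in wild-type and 21.9 in knock-out testes at E12.5 and at 25.7 and 33 at E14.5, with no call. Tacr1 and Tacr2 did not exceed 5.4. Of the protein C pathway 6 of 16 genes were tested. Procr, the protein C receptor, read 224 in wild-type and 232 in knock-out ovaries at E12.5, and 406 versus 258 in those of E14.5, while Proc itself stayed at 4.24 to 6.2. Serpina5, the protein C inhibitor, rose with stage from 5.62 to 11.7 in the wild-type and from 5.87 to 16.4 in the knock-out testis (limma adjusted p = 0.0102 and 0.00122). Calcrl, the receptor partner of RAMP1, read 439 and 411 in the E12.5 ovary and 503 and 404 in the E14.5 ovary, and its ligand genes Calcb and Adm2 did not exceed 5.4. Adm, which encodes the ligand adrenomedullin, fell with stage in the wild-type testis from 24.3 ± 1.62 to 9.001 ± 2.72 (limma adjusted p = 0.0381). Fmo1, the neighbour of Fmo2 in the genome, read 30.0 in wild-type and 27.1 in knock-out ovaries at E14.5. Its log2 difference was -0.53 and -0.11 in the ovary at E12.5 and E14.5, and 0.03 and 0.32 in the testis.

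Small leucine-rich proteoglycans, the family of Aspn, gave 0 calls of 7 tested between genotypes and 5 rises between the stages in the wild-type testis (Dcn, Bgn, Lum, Fmod and Ogn), where 6.73% of all genes rose. Ogn rose from 67.7 ± 4.72 to 319 ± 93.2 (4.41-fold). In the knock-out testis Dcn, Lum and Ogn rose, 3 of 7, where 2.77% of all genes rose. Of 10 tested genes of the RASSF and MST family Rassf5 rose with stage in both genotypes of testis, from 15.2 ± 0.747 to 118 ± 1.12 in wild type, and Rassf3 rose in wild type, 2 of 10 beside 6.73% of all genes in wild type and 1 of 10 beside 2.77% in knock-out.

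Marker lists of cell types moved in both directions between the same groups. Pre-granulosa markers, those of the supporting cells of the ovary, fell in the knock-out ovary for 3 of 13 genes at E12.5 (Fst, Lgr5 and Msx1) and for 5 of 13 at E14.5 (Wnt4, Irx5, Lgr5, Msx1 and Runx1), where 0.105% and 0.341% of all genes fell by limma. Wnt4 is the gene labelled as knocked out, so nothing about these cells is read from its fall. Their sum was 2036 and 1481 (knock-out) versus 3308.5 and 5308 (wild type) at E12.5 and 2222 and 2256 versus 5485 and 4259 at E14.5, with 10 to 13 of 13 above the array's median over all arrays. These sums include Wnt4, at 839 and 520 versus 844 and 1822 at E12.5 and at 351 and 302 versus 1138 and 1150.5 at E14.5. Fst, which encodes follistatin, fell from 724 ± 50.6 to 68.4 ± 18.3 at E12.5 (limma adjusted p = 0.0274). Of 7 markers of the mesonephros and ducts Calb1 and Pax8 fell in the E14.5 ovary, where the sums were 962 and 1248 versus 2364 and 2045. Sertoli cell markers had 0 of 14 calls there and a median log2 difference of -1.05, with sums of 1176 and 1398 versus 1633 and 5272, the last from the array with 20.8% RNA of the other sex. In the E12.5 ovary chromaffin and sympathetic neuron markers summed to 6305 and 2652 (knock-out) versus 2035 and 1921 (wild type), with 2 to 8 of 8 genes above the array's median over all arrays. Th, which encodes tyrosine hydroxylase, rose there from 14.7 to 94.4 (limma adjusted p = 0.00168), where 0.187% of all genes rose. In the E12.5 testis the same list went the other way, with sums of 1390 and 576 (knock-out) versus 2438 and 2419 (wild type), a median log2 difference of -1.60 and 0 of 8 calls. Striated muscle markers summed to 673 and 1419 versus 181 and 257 at E12.5 and to 585 and 499 against 246 and 199 at E14.5, with 6 to 8 of 10 above the median, and Myod1, the transcription factor that defines muscle precursors, read 2.58 to 4.6 over all arrays. Myh3 and Tnnc1, genes of the contractile fibre, rose in the E12.5 ovary (limma adjusted p = 0.0415 and 0.0331). Fetal Leydig cell markers summed to 3309 and 2053 against 1300 and 1701 in the E12.5 ovary and to 2219 and 3103 against 1709 and 1694 in the E12.5 testis, with 3 to 7 of 7 above the median. Their highest sums, 9846 to 16855, were those of the E14.5 testis. In the E12.5 testis germ cell markers summed to 4824 and 5076 (knock-out) versus 2677 and 2553 (wild type), with 7 or 8 of 8 above the median. Endothelial markers summed to 4518 and 3661 against 3211 and 3521 in the E12.5 ovary and to 2521 and 3530 against 2592 and 2800 in the E14.5 ovary, with 13 or 14 of 14 above the median. Their part in the differences of the 10 genes was not tested. The 3'/5' ratio of control probe sets was 2.27 on replicate 1 of the E12.5 knock-out ovary and at most 1.76 on the other arrays. With this ratio as a covariate the E12.5 ovary differences were 0.12 (Ramp1) to 2.81 (Cela3b), and with the share of RNA of the other sex they were 0.16 (Ramp1) to 3.02 (Tacr3), all positive in both fits.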

How the data were processed

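The authors deposited 1 linear intensity per probe set and array, made with MAS5 per the submitters' processing notes. Its version, scaling target and further steps are not stated there. Per the labels' protocols, RNA was purified on columns from frozen gonads genotyped by PCR. The scale was kept, and log2(intensity + 4) was computed, where 4 is the rounded median of the arrays' 20th percentiles; folds are on this scale and understate changes of dim genes. A probe set had to exceed the median of its array on 2 or more arrays, which kept 25596. Symbols came from the platform annotation, with 34945 probe sets naming 1 gene, 932 several and 9160 none, and were updated by Entrez number. Each of 12332 genes was represented by its probe set of highest mean.

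A limma model (version 3.58.1, R 4.3.3) estimated the 8 group means from the 16 arrays in 1 fit, with an intensity trend in the moderated variances (8 residual and 5.29 prior degrees of freedom) and two-sided tests. Benjamini-Hochberg adjustment ran over all genes at a threshold of 0.05. Group values are means ± SD of 2 arrays, whose number limits the precision. The members and lists were chosen with earlier results of these data known. Genes named beside them are the 2 of highest Pearson r with each member, and list genes past the test or near 0. Tac2, Procr, Calcrl and Fmo1 stand outside this rule and were chosen after their values were seen. Contrasts that use ovary arrays are descriptions of the members. Alternatives covered the pseudocount, filter, normalization, variance trend, probe sets, samples in the fit, replicate block, covariates and left-out arrays. The code was tested on simulated data.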

Additional observations from a re-analysis of the deposited data

How the results depend on the processing

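In the testis at E12.5, 5 genes and 1 of the 10 members (Htr1b) were called. Genes called came to 9 with a pseudocount of 16, 12 with no filter, 3 with quantile normalization, 1 with no variance trend, with the mean of probe sets or with only the 4 arrays compared, 0 with the almost identical arrays averaged, 56 with the share of other-sex RNA and 8 with the 3'/5' ratio as covariate, and 0 to 29 with 1 array left out. Members called came to 0 with no variance trend, the mean of probe sets, only the 4 arrays, the averaged arrays or the 3'/5' covariate, and to 0 to 1 with 1 array left out. At E14.5, against 1 gene and 0 members, 3 genes were called with a pseudocount of 16 or without arrays above 10% other-sex RNA, 0 with only the 4 arrays, and 1 to 10 genes and 0 to 1 members with 1 array left out. Between stages the wild-type testis gave 1306 genes and 5 members. These were 3366 genes with only the 4 arrays, 302 genes and 1 member with the averaged arrays, 2 members without arrays above 10% other-sex RNA, and 260 to 741 genes and 0 to 4 members with 1 array left out. The knock-out testis gave 498 genes and 2 members, 884 genes with other-sex RNA as covariate, 4 members with a pseudocount of 16, 1 member with the averaged arrays, and 176 to 495 genes and 1 member with 1 array left out. The cause was not tested, beyond the fewer arrays in fits that leave arrays out.

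The replicate number as a block gave 21 genes and 1 member in the testis at E12.5, and 1 gene and 0 members at E14.5. Labels do not say that equal numbers share an embryo, litter or day. Deviations of equal numbers correlated at -0.03 and 0.58 in the knock-out comparisons at E12.5 and E14.5 and at -0.07 and 0.03 between stages in wild type and knock-out. At E14.5 replicate 2 held RNA of the other sex in both the wild-type (22.9%) and the knock-out testis (16.6%). Its part in the 0.58 was not tested. Of 670 single-gene values in testis alternatives, 605 kept their direction and side of the threshold, 38 lost the call, 11 gained one and 16 changed sign, none of them called in either. For Ramp1 these were 0.0331 in the E12.5 testis between genotypes and 0.0626 between wild-type stages with quantile normalization, 0.0523 at E14.5 between genotypes and -0.16 between knock-out stages with the share of other-sex RNA as covariate, and -0.21 between knock-out stages without arrays above 10% of it, where Cpa1 came to -0.13 between wild-type stages. With 1 array left out the log2 difference between genotypes at E14.5 ranged from -0.10 to 0.46 for Thbd, -0.25 to 0.22 for Ramp1 and -0.19 to 0.69 for Plbd1. Between wild-type stages it ranged from -0.23 to 0.21 for Ramp1, -0.10 to 0.19 for Plbd1 and -0.13 to 0.68 for Cpa1, and between knock-out stages from -0.71 to 0.24 for Cpa1 and -0.21 to 0.26 for Ramp1. Of 340 in the ovary, 22 moved by more than the spread between replicates and 2 changed sign (Rassf2 at E12.5). Intensities near the dim end limit Ramp1, Rassf2 and Aspn at E12.5.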

Other observations

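The genes next to the 10 members in the RefSeq order of GRCm38.p6 numbered 20, and 11 of them were measured. Sstr4, a somatostatin receptor gene beside Thbd, differed between knock-out and wild type by 1.68 and 1.63 on the log2 scale in the ovary at E12.5 and E14.5, and by 0.66 and 0.35 in the testis. Cd93 on the other side of Thbd came to 0.92 and -0.11 in the ovary and to 0.82 and 0.04 in the testis. Rbm44, which encodes a germ cell RNA-binding protein beside Ramp1, came to -0.40 and 1.44 in the ovary and to 1.88 and 0.08 in the testis. These genes were picked out after their values had been seen.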
